A study of Mus musculus with 2 samples.

Results

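The genes described are 8 of the 31053 listed for each library: the class I histone deacetylases Hdac1, Hdac2, Hdac3 and Hdac8, and the corepressor subunits Ncor1, Tbl1x, Tbl1xr1 and Gps2. They were chosen by symbol, with earlier results of these data known. They were followed across single cells of mouse spinal cord taken 5 days after injury, from 1 library given an inhibitor of HDAC3 and 1 given vehicle. The libraries share the injury, the time after it and the 10x Genomics 3' version 3 kit. The labels name no compound, dose, strain, age or number of animals, so neither group can be said to hold more than 1 animal. All 8 genes were detected in both libraries, with 12630 UMIs (unique molecular identifiers, each standing for 1 captured transcript) in 2894 kept cells under the inhibitor and 10251 UMIs in 2126 kept cells under vehicle.

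Histone deacetylases remove acetyl groups from histone tails and other proteins, and the class I enzymes act mostly inside multiprotein corepressor complexes. Hdac1 and Hdac2 encode closely related enzymes shared by the Sin3, NuRD, CoREST and MiDAC complexes, Hdac3 encodes the enzyme of the NCoR complex, and Hdac8 encodes a deacetylase best known for acting on cohesin. In the NCoR complex, Ncor1 encodes the scaffold that binds and activates HDAC3, Tbl1x and Tbl1xr1 encode related WD40-repeat subunits, and Gps2 encodes a small subunit that joins them. In microglia and macrophages this complex is known for holding inflammatory genes in check and, through HDAC3, also for supporting their induction.

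Where a sentence gives a pair of values, the inhibitor's comes first and the vehicle's second. A level is the CPM of a class, the gene's share of the summed UMIs of all its cells in parts per 1000000, with an exact Poisson 95% interval where one is given. These are 3' counts that are not scaled by transcript length, so levels are compared between classes and libraries and not between genes. With 1 library per group there is no replicate check and no test. Every interval covers counting error only, and how far animals differ is unknown. The order of classes for a gene is by the mean log2 level of both libraries, and a class called highest or lowest is so by that mean. Cell classes were named from usual marker genes and carry the ending "-like". Of 5020 kept cells, 4291 (85.5%) fell in the 8 classes described, and all 10 to 12 markers of each class had UMIs in that class in both libraries. No cluster took the name of neurons, and astrocyte-like cells numbered 26 and 9.

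The classes differed in size and depth. Median UMIs per cell ran from 2857 and 3269 in Schwann-like cells to 23223.5 and 25682 in monocyte/macrophage-like cells. Before filtering, the libraries held 3423 and 2523 barcodes with 38957752 and 29726813 UMIs, at medians of 8243 and 8196, and 10 barcodes occurred in both libraries, 3 of them among kept cells. No UMI of Xist was found in either library, and Ddx3y, a Y-linked gene, was at 56.8 and 61.7 CPM, so the X-linked members Hdac8 and Tbl1x were read from cells of the same apparent sex.

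In GENCODE M21 on mm10 (GRCm38) coordinates the 8 genes lie on 6 chromosomes. Hdac1 (ENSMUSG00000028800) spans chr4:129516104-129542713, Hdac2 (ENSMUSG00000019777) chr10:36974544-37001889, Hdac3 (ENSMUSG00000024454) chr18:37935844-37955016 and Hdac8 (ENSMUSG00000067567) chrX:102284639-102505359. Ncor1 (ENSMUSG00000018501) spans chr11:62316426-62458541, Tbl1x (ENSMUSG00000025246) chrX:77511013-77662983, Tbl1xr1 (ENSMUSG00000027630) chr3:22076652-22216594 and Gps2 (ENSMUSG00000023170) chr11:69913888-69916591. At the transcript ends that this kit counts, none of the 441 stretches of 60 bases in the last 500 bases occurred in a transcript of another gene for 7 members, and for Gps2 4 of 441 also occurred in Gm5221. Ncor1 overlaps Ttc19, Pigl and the pseudogene Gm12276 on the opposite strand, and whether the counting used strand was not stated in the sources used here. Hdac8 overlaps Gm14858 and Tbl1xr1 the pseudogene Gm5842 on the opposite strand, and Tbl1x overlaps Gm23121, an snRNA gene, on the same strand.

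Promoter sequence is shown for Hdac2 and Tbl1xr1, which were lowest in neutrophil-like and mural-like cells, respectively, and whose RefSeq window (build GRCm38.p6) ends before the GENCODE gene start. Each is the 250 bases before the RefSeq start, 5′ to 3′ on the plus strand, chr10:36974294-36974543 and chr3:22076402-22076651, with capitals on a GC box (GGGCGG read on either strand).

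Hdac2: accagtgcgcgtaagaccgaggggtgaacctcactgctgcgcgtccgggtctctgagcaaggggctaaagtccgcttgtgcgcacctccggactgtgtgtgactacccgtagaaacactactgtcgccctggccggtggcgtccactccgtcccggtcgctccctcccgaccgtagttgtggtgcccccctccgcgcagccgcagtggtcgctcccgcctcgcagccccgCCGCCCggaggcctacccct

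Tbl1xr1: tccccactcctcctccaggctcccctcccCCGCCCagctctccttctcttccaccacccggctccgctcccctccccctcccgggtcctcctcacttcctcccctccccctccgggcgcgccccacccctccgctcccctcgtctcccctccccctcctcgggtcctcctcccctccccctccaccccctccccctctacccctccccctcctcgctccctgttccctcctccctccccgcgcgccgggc

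The Hdac2 window held 27 CpG and was 68.8% G or C, and the Tbl1xr1 window held 15 CpG at 76.0%. Over 32851 RefSeq promoters the medians were 6 CpG and 52.4%, and 91.4% and 72.7% of promoters held fewer CpG than these. Each window held 1 GC box, as 32.7% of all promoters do at least once, and neither held CCAAT (in 33.8% of promoters on either strand), TATAAA (12.4%), CCGGAAGT (2.88%) or TGACGTCA (1.55%). These matches describe the letters of the windows and were not related to the levels below.

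**Figure D1:**
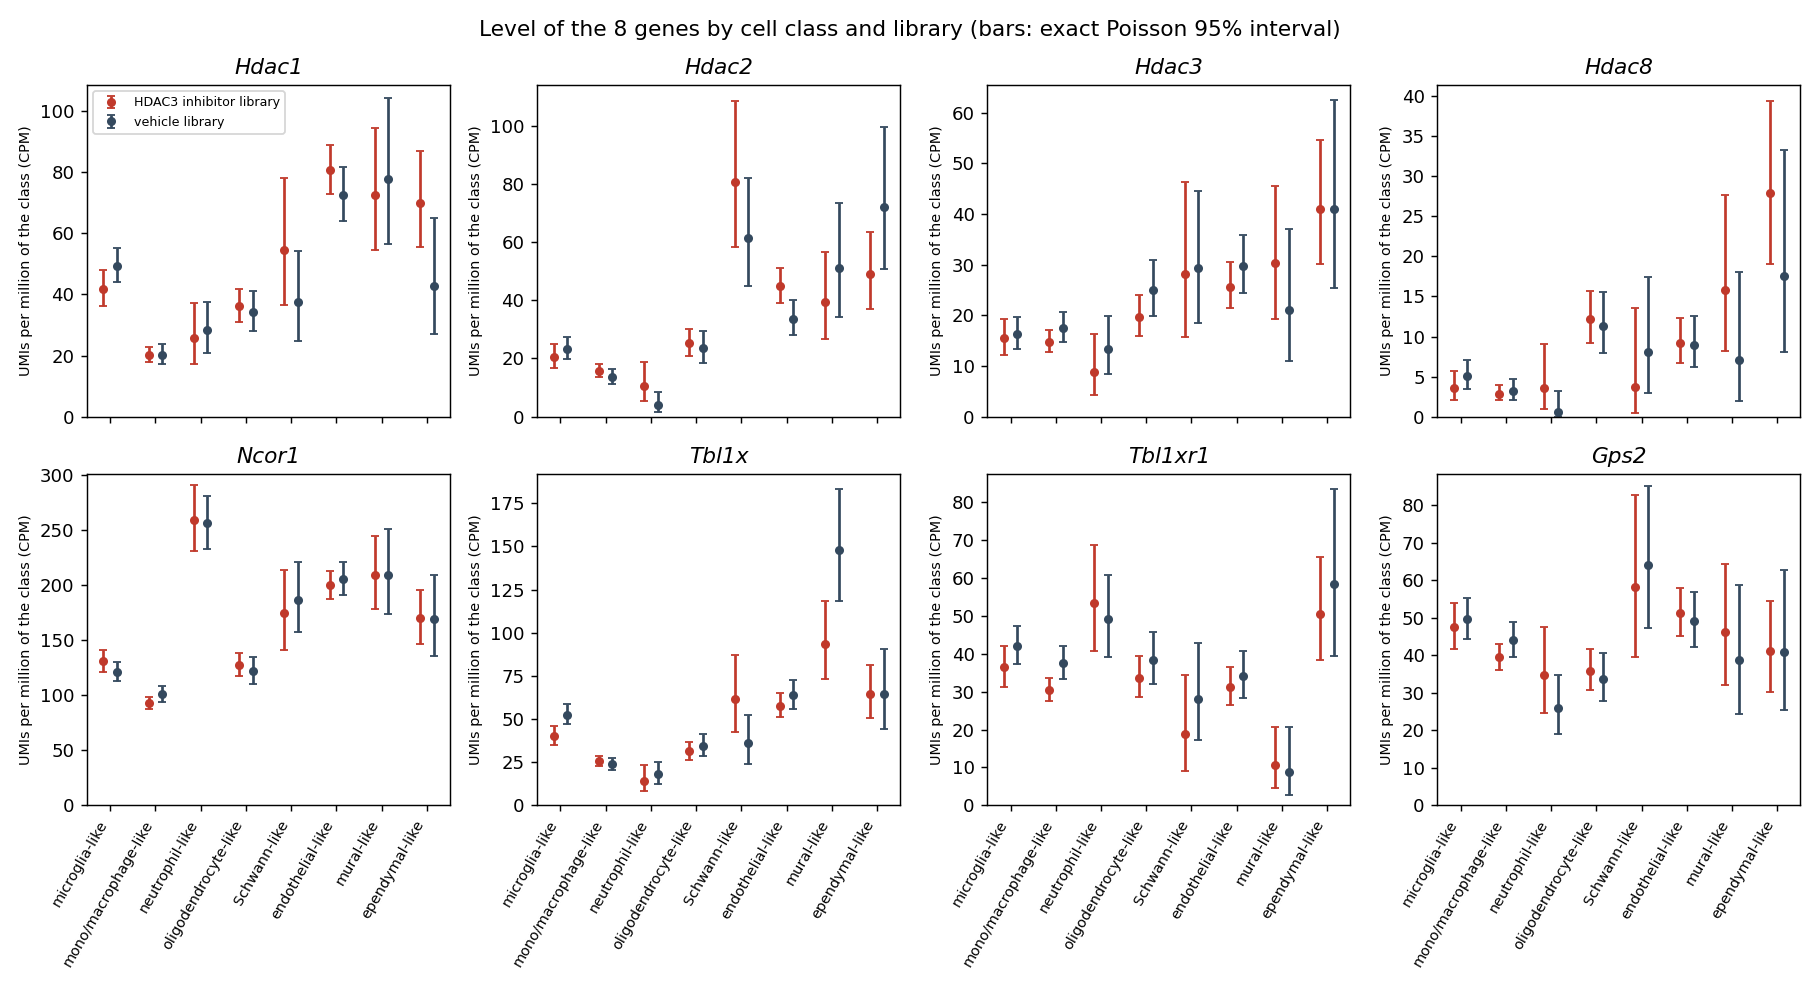
Level of each of the 8 genes (CPM of the class, linear axis from 0, scale set per panel) in the 8 cell classes, red for the HDAC3 inhibitor library and dark blue for the vehicle library, with exact Poisson 95% intervals. Hdac2, Hdac3 and Tbl1x are lowest in neutrophil-like cells in both libraries, where Ncor1 is highest, and Tbl1xr1 is lowest in mural-like cells, where Tbl1x is highest.

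Hdac1 was highest in vascular cells and lowest in monocyte/macrophage-like cells. Endothelial-like cells had 80.6 and 72.3 CPM, mural-like cells (pericytes and smooth muscle) 72.5 and 77.6 CPM, and monocyte/macrophage-like cells 20.3 and 20.3 CPM. The endothelial-like level was 3.97 times the monocyte/macrophage-like level under the inhibitor (95% interval 3.38 to 4.66) and 3.56 times under vehicle (2.92 to 4.36), so this contrast was far wider than counting error. Between these extremes lay ependymal-like cells, ciliated cells bordering the cerebrospinal fluid (69.8 and 42.9 CPM), microglia-like cells (41.8 and 49.4), Schwann-like cells (54.4 and 37.4), oligodendrocyte-like cells (36.0 and 34.1) and neutrophil-like cells (25.8 and 28.3). Microglia-like cells thus had more Hdac1 than monocyte/macrophage-like cells in each library, although both are phagocytes. No 2 neighbours in the Hdac1 order were apart in both libraries, where apart means that the interval of the ratio of levels excluded 1 in the same direction in each.

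Hdac2 was highest in Schwann-like cells, glia of nerve roots, at 80.7 and 61.5 CPM (in the vehicle library alone ependymal-like cells were higher). Hdac2 was lowest in neutrophil-like cells, at 10.7 and 4.04 CPM from 12 and 7 UMIs. The ratio of Schwann-like to neutrophil-like cells was 7.56 (3.91 to 15.7) and 15.2 (6.82 to 39.9). Ependymal-like cells had 48.9 and 72.1 CPM, mural-like cells 39.6 and 51.1, endothelial-like cells 44.8 and 33.6, oligodendrocyte-like cells 25.1 and 23.4, microglia-like cells 20.5 and 23.4 and monocyte/macrophage-like cells 15.8 and 13.6. The order therefore ran from Schwann-like, ependymal-like and vascular classes through oligodendrocyte-like cells down to the 3 myeloid classes. Endothelial-like cells were apart from oligodendrocyte-like cells, the next below (1.78, 1.42 to 2.24, and 1.43, 1.07 to 1.93), and microglia-like from monocyte/macrophage-like cells (1.30, 1.01 to 1.65, and 1.72, 1.34 to 2.23).

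Hdac3 varied less between classes than the median gene (log2 range 1.53 against 2.61, as defined below). It was highest in ependymal-like cells, at 41.0 and 40.9 CPM, and lowest in neutrophil-like cells, at 8.89 and 13.3 CPM, a ratio of 4.61 (2.30 to 10.2) and 3.08 (1.62 to 5.82). Schwann-like cells had 28.1 and 29.4 CPM, endothelial-like cells 25.7 and 29.8, mural-like cells 30.3 and 21.2 and oligodendrocyte-like cells 19.7 and 24.96. The phagocytes stood side by side, with 14.8 and 17.5 CPM in monocyte/macrophage-like and 15.5 and 16.3 CPM in microglia-like cells. Only oligodendrocyte-like and monocyte/macrophage-like cells were neighbours apart in both libraries (1.33, 1.03 to 1.71, and 1.42, 1.07 to 1.88).

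Hdac8 gave few UMIs, 430 over all kept cells. Ependymal-like cells had 27.9 and 17.5 CPM from 32 and 9 UMIs, and neutrophil-like cells 3.56 and 0.578 CPM from 4 and 1 UMIs, although in the inhibitor library alone monocyte/macrophage-like cells were lower. The ratio was 7.85 (2.78 to 30.5) under the inhibitor and 30.4 (4.21 to 1331) under vehicle, and the latter rests on a single neutrophil-like UMI. The other classes ranged from 2.88 and 3.18 CPM in monocyte/macrophage-like cells to 15.8 and 7.05 CPM in mural-like cells and 12.2 and 11.3 CPM in oligodendrocyte-like cells. No neighbours were apart in both libraries.

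Among the corepressor subunits, the scaffold gene Ncor1 had its highest level in neutrophil-like cells, at 259.7 and 256.5 CPM, where Hdac2 and Hdac3 were at their lowest. Monocyte/macrophage-like cells had the lowest Ncor1 level, 92.8 and 101 CPM. The ratio was 2.80 (2.45 to 3.18) and 2.54 (2.26 to 2.86). Mural-like cells had 209.7 and 209.8 CPM, endothelial-like cells 199.9 and 206, Schwann-like cells 174 and 187, ependymal-like cells 170.2 and 169.6, microglia-like cells 131 and 121 and oligodendrocyte-like cells 128 and 122. Neutrophil-like cells were not apart from mural-like cells, the next below (1.24, 1.02 to 1.51, and 1.22, 0.996 to 1.51), and with the largest cluster of each class alone mural-like cells were the highest. The step from ependymal-like to microglia-like cells was apart in both libraries (1.30, 1.10 to 1.52, and 1.40, 1.11 to 1.75), and so was that from oligodendrocyte-like to monocyte/macrophage-like cells (1.37, 1.24 to 1.52, and 1.21, 1.07 to 1.37). Ttc19, which overlaps Ncor1 on the other strand, was at 9.78 and 8.09 CPM in neutrophil-like cells and between 11.8 and 60.1 CPM in the other classes, so it did not follow the Ncor1 order.

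Tbl1x was highest in mural-like cells, at 93.7 and 148 CPM, and lowest in neutrophil-like cells, at 14.2 and 17.9 CPM, a ratio of 6.58 (3.79 to 12.1) and 8.27 (5.42 to 12.9). Mural-like cells were apart from ependymal-like cells, the next below at 64.6 and 64.3 CPM, by 1.45 (1.03 to 2.04) and 2.30 (1.52 to 3.56). Endothelial-like cells had 57.8 and 63.9 CPM, Schwann-like cells 61.9 and 36.1, microglia-like cells 40.2 and 52.6, oligodendrocyte-like cells 31.2 and 34.4 and monocyte/macrophage-like cells 25.6 and 23.8. Microglia-like cells were apart from oligodendrocyte-like cells, the class below, by 1.29 (1.04 to 1.60) and 1.53 (1.23 to 1.91).

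Its relative Tbl1xr1 had another order. It was highest in ependymal-like cells (50.6 and 58.5 CPM) and next in neutrophil-like cells (53.4 and 49.1 CPM), where Tbl1x was lowest, with the reverse order in the inhibitor library alone. Mural-like cells, with the most Tbl1x, had the least Tbl1xr1, at 10.6 and 8.82 CPM from 8 and 5 UMIs. The ratio of ependymal-like to mural-like cells was 4.796 (2.28 to 11.6) and 6.63 (2.55 to 21.9). Levels in between were 36.4 and 42.0 CPM in microglia-like, 33.7 and 38.4 in oligodendrocyte-like, 30.5 and 37.6 in monocyte/macrophage-like, 31.2 and 34.1 in endothelial-like and 18.8 and 28.1 in Schwann-like cells. No neighbours were apart in both libraries.

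Gps2 varied least of the 8. It ran from 58.1 and 64.1 CPM in Schwann-like cells to 34.7 and 26.0 CPM in neutrophil-like cells, a ratio of 1.68 (1.01 to 2.76) and 2.47 (1.61 to 3.79). The other 6 classes lay between 33.8 and 51.1 CPM, and no neighbours were apart in both libraries.

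Over all 8 genes, 7 of 56 pairs of neighbouring classes (12.5%) were apart in both libraries, against a background of 20.8% of the pairs of 8893 genes with at least 500 UMIs. The background was not matched for UMIs, and Hdac8, with 430, lies below its minimum, so nothing is read from this count about the genes. At equal thinned depth 1 pair was apart in place of 7. The range from highest to lowest class, as log2(CPM + 5), was 0.91 for Gps2, 1.37 for Ncor1, 1.53 for Hdac3, 1.68 for Hdac1, 1.98 for Hdac8, 2.02 for Tbl1xr1, 2.55 for Tbl1x and 2.66 for Hdac2. The median gene had a range of 2.61. Of the 8893 genes, 2.96% had a smaller range than Gps2, 12.99% than Ncor1 and 51.1% than Hdac2, so these genes ran from among the most even to about the middle of all genes.

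**Figure D2:**
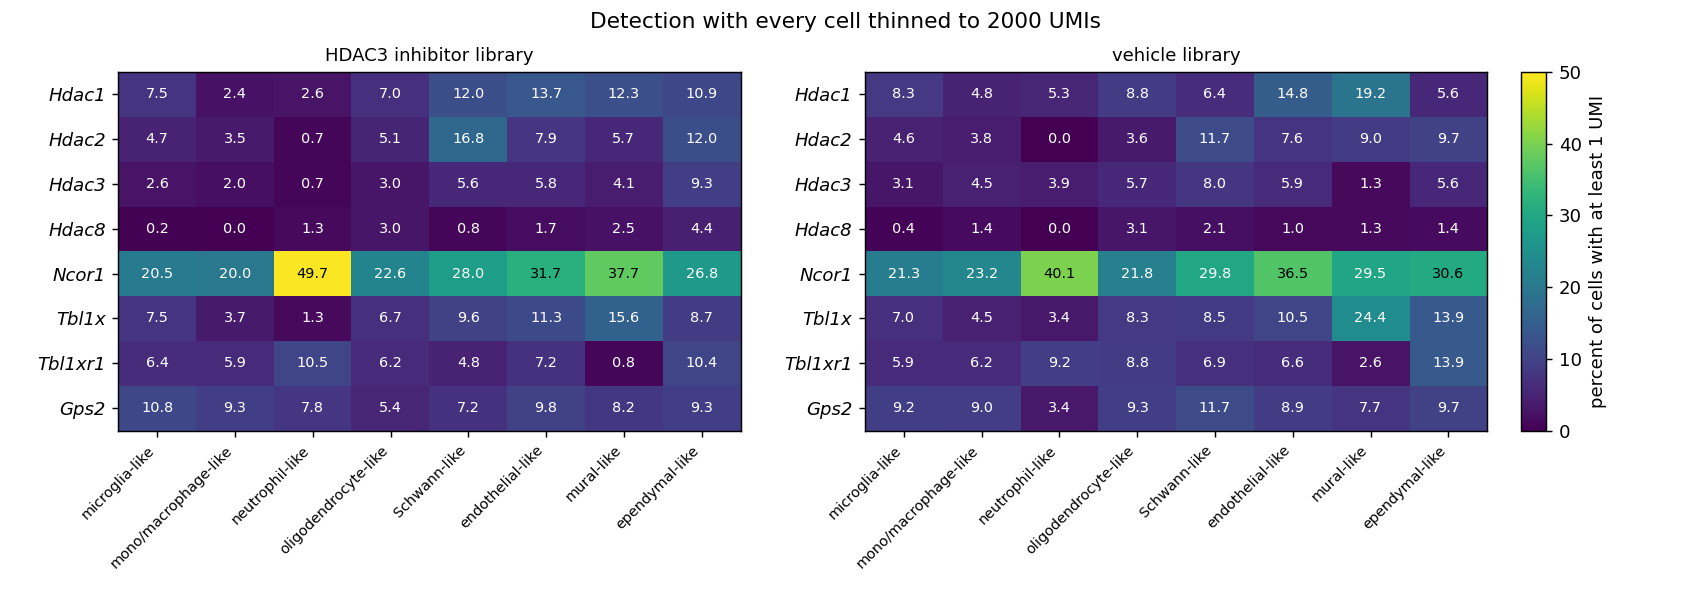
Percent of cells with at least 1 UMI of each gene after every cell was thinned to 2000 UMIs, by class and library, on a color scale from 0 to 50%. Ncor1 is highest in neutrophil-like cells (49.7% and 40.1%), and Tbl1xr1 is near 0 in mural-like cells, where Tbl1x reaches 15.6% and 24.4%.

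Detection per cell depends on depth, so it was also compared with each cell thinned to 2000 UMIs. Ncor1 was then found in 49.7% (76 of 153; exact Clopper-Pearson interval 41.5 to 57.9) and 40.1% (83 of 207; 33.4 to 47.1) of neutrophil-like cells. In the other classes the thinned share lay between 20% and 37.7%, with 20% and 23.2% in monocyte/macrophage-like cells. Without thinning the order was other: 73.1% and 80.2% of neutrophil-like cells but 83.8% and 87.6% of the much deeper monocyte/macrophage-like cells had an Ncor1 UMI. Thinning left out 22 and 5 neutrophil-like and 33 and 28 Schwann-like cells below that depth, and 12 cells or fewer of any other library and class except microglia-like cells (20 and 22).

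Tbl1x was found in 15.6% (9.64 to 23.2) and 24.4% (15.3 to 35.4) of thinned mural-like cells and in 3.70% to 13.9% of thinned cells of the other non-neutrophil classes. Tbl1xr1 was found in 1 of 122 and 2 of 78 thinned mural-like cells. In thinned neutrophil-like cells Hdac2 was found in 1 of 153 and 0 of 207 cells, and the 0 allows a share of cells with a UMI of up to 1.45%, taking 3 cells as the limit that a count of 0 sets. Hdac8 was found in 0 of 540 thinned monocyte/macrophage-like cells under the inhibitor (up to 0.556% by the same limit) and in 0 of 207 thinned neutrophil-like cells under vehicle (up to 1.45%). At this depth most values outside Ncor1 are near the limit of a single UMI per cell and give no order of their own.

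None of the 8 classes can be assumed to lack these genes, so free RNA in the droplets was read from markers of other cells. Markers of endothelial-like cells reached 0.139% and 0.115% of their own level in neutrophil-like cells, those of mural-like cells 0.186% and 0.192%, and those of oligodendrocyte-like cells 0.412% and 0.388%. Microglia markers, some of which neutrophils may share, reached 0.685% and 0.759%, and Schwann markers 0.0201% and 0.183%. Monocyte/macrophage markers reached 55.7% and 59.4%, and Chil3, one of them, was a top gene of a neutrophil-like cluster. Hdac2 in neutrophil-like cells, at 10.7 and 4.04 CPM, rests on 12 and 7 UMIs. Every class had Hdac2, so shares of markers of single classes do not give its free RNA level. The part of free RNA in the Hdac2 level was not tested.

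**Figure D3:**
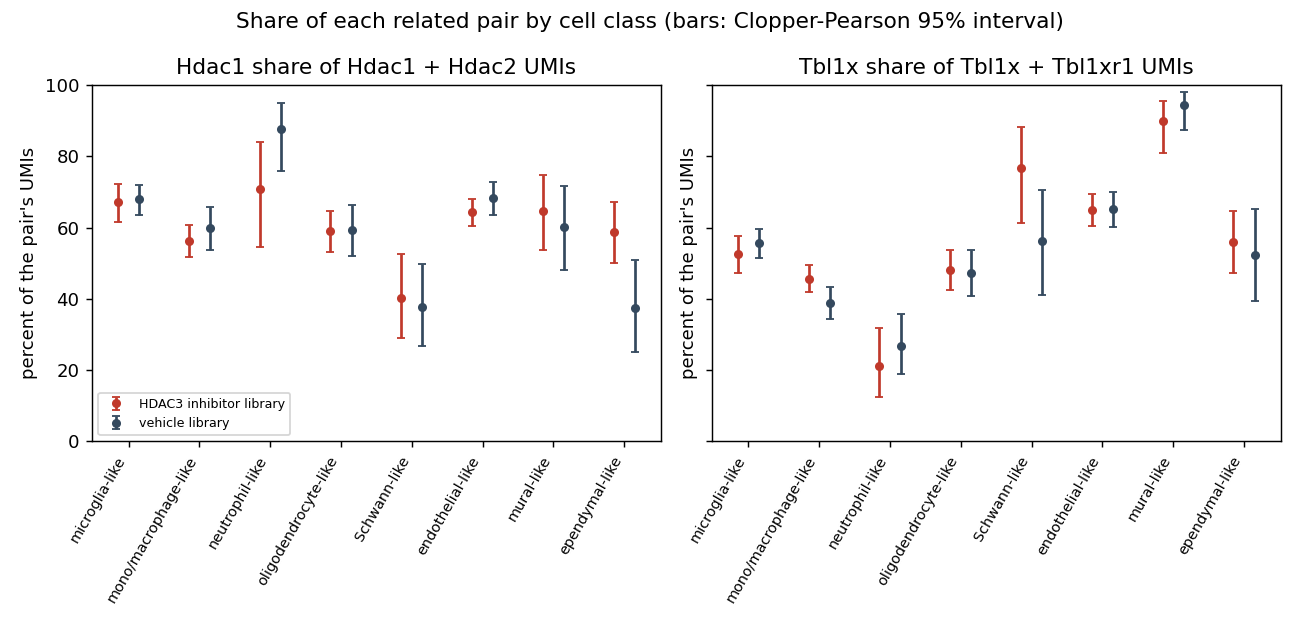
Share of the first gene among the UMIs of a related pair (Hdac1 with Hdac2, Tbl1x with Tbl1xr1; percent, axis 0 to 100) in the 8 classes, with Clopper-Pearson 95% intervals, red for the HDAC3 inhibitor and dark blue for the vehicle library. Tbl1x makes up 89.9% and 94.4% of its pair in mural-like and 21.1% and 26.7% in neutrophil-like cells, and Hdac1 70.7% and 87.5% of its pair in neutrophil-like and 40.3% and 37.8% in Schwann-like cells.

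Shares within a related pair do not depend on the total of the class. Tbl1x and Tbl1xr1 encode subunits that can take the same place in the complex, and the Tbl1x share of their summed UMIs was 89.9% (81.0 to 95.5) and 94.4% (87.4 to 98.2) in mural-like cells. It was 65.0% and 65.2% in endothelial-like, 76.7% and 56.3% in Schwann-like, 56.1% and 52.4% in ependymal-like, 52.5% and 55.6% in microglia-like, 48.1% and 47.3% in oligodendrocyte-like and 45.6% and 38.7% in monocyte/macrophage-like cells. In neutrophil-like cells it was 21.1% (12.5 to 31.9) and 26.7% (18.9 to 35.7), so the pair turned from nearly all Tbl1x in mural-like cells to mostly Tbl1xr1 in neutrophil-like cells, with intervals that did not meet in either library. Because transcript ends may be captured with unequal efficiency, the shares are compared across classes and not read as molar amounts.

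Hdac1 made up 70.7% (54.5 to 83.9) and 87.5% (75.9 to 94.8) of Hdac1 plus Hdac2 UMIs in neutrophil-like cells and 40.3% (28.9 to 52.5) and 37.8% (26.8 to 49.9) in Schwann-like cells. Microglia-like cells had 67.1% and 67.9%, endothelial-like cells 64.3% and 68.3%, mural-like cells 64.7% and 60.3%, oligodendrocyte-like cells 58.9% and 59.3% and monocyte/macrophage-like cells 56.3% and 59.9%. In ependymal-like cells it was 58.8% (50.1 to 67.2) and 37.3% (25.04 to 50.9), with intervals that just overlapped, the latter from 22 Hdac1 and 37 Hdac2 UMIs.

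Across the 16 points formed by 8 classes in 2 libraries, the levels of some members ran together as log2(CPM + 5). Pearson's r was 0.87 for Hdac1 and Tbl1x, 0.82 for Hdac2 and Hdac3, 0.81 for Hdac3 and Hdac8 and -0.64 for Tbl1x and Tbl1xr1. Points of 1 library share its depth and processing, and the neutrophil-like points share a total dominated by few genes, so these values are descriptions. The 3 genes most like each member by the same measure were Rapgef2 (0.904), Ppp2r5d (0.904) and Adamts1 (0.896) for Hdac1, and Prpf6 (0.958), Rbm8a (0.954) and Pnn (0.952) for Hdac2. For Hdac3 they were Tdrd3 (0.968), Psmd5 (0.963) and Cep44 (0.963), and for Hdac8 Ganc (0.942), Tceal1 (0.937) and Pttg1 (0.934). For Ncor1 they were Phf1 (0.931), Clasp1 (0.923) and Pnpla8 (0.923), for Tbl1x Pkd1 (0.948), Asb13 (0.939) and Ppp2r5d (0.935), for Tbl1xr1 Mkrn1 (0.837), Rtf2 (0.835) and Sft2d2 (0.830), and for Gps2 Tmem176a (0.912), Irf2bpl (0.896) and Tmem176b (0.891). Ppp2r5d, which encodes a regulatory subunit of protein phosphatase 2A, was on the lists of both Hdac1 and Tbl1x.

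The neutrophil-like cells formed a cluster led by Camp, Ngp and Ltf, genes of granule proteins made in immature neutrophils (75 and 121 cells), and a cluster led by Retnlg, Il1b and Mmp9 (100 and 91 cells). The first held 42.9% and 57.1% of the class and the second 57.1% and 42.9%, so different clusters held most of the class in each library. Ncor1 was at 473 and 462 CPM in the Retnlg cluster and 186 and 199 CPM in the Camp cluster, a ratio of 2.54 (2.001 to 3.21) and 2.32 (1.91 to 2.82). Of genes with at least 500 UMIs, 11.5% were higher in the Retnlg cluster in both libraries by the same rule and 4.55% lower.

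This Ncor1 contrast depends on what the level is set against. The 10 neutrophil marker genes took 40.1% and 43.3% of the UMIs of neutrophil-like cells, while the markers of the other classes took 0.901% to 5.28% of theirs. With all marker genes left out of the totals, a choice made after seeing this, Ncor1 was at 440.0 and 461 CPM in neutrophil-like cells as a whole and the ratio of the Retnlg to the Camp cluster was 1.88 (1.48 to 2.38) and 1.72 (1.41 to 2.09). By these totals, and by the mean over both libraries, neutrophil-like cells were no longer the lowest class for Hdac3 (15.1 and 23.9 CPM), Tbl1x (24.1 and 32.2) or Gps2 (58.8 and 46.7), were the highest for Tbl1xr1 (90.4 and 88.2), and remained the lowest for Hdac2 (18.1 and 7.27). Hdac1 there was at 43.7 and 50.9 CPM from 29 and 49 UMIs, close to its level in microglia-like cells (42.3 and 50.1). It was above that in oligodendrocyte-like (37.0 and 35.1) and monocyte/macrophage-like cells (20.7 and 20.7), without intervals by these totals. The bottom rank of neutrophil-like cells for Hdac3, Tbl1x and Gps2, by the mean, thus holds for all UMIs and not for UMIs outside the markers. Under the inhibitor alone neutrophil-like cells stayed lowest for Tbl1x, at 24.1 against 26.1 CPM in monocyte/macrophage-like cells. Under vehicle these were at 32.2 against 24.2 CPM. For Hdac3 under the inhibitor both classes were at 15.07 CPM. Per cell, Ncor1 was not higher in the Retnlg cluster, with 1.36 and 1.91 UMIs against 2.08 and 2.23 in the Camp cluster, whose cells held a median of 9313 and 10079 UMIs against 2672.5 and 3845. An Ncor1 UMI was found in 68.0% and 78.0% of Retnlg cluster cells and in 80.0% and 81.8% of Camp cluster cells. Ncor1 therefore made up a larger part of the RNA counted in the Retnlg cluster, from fewer UMIs in all.

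**Figure D4:**
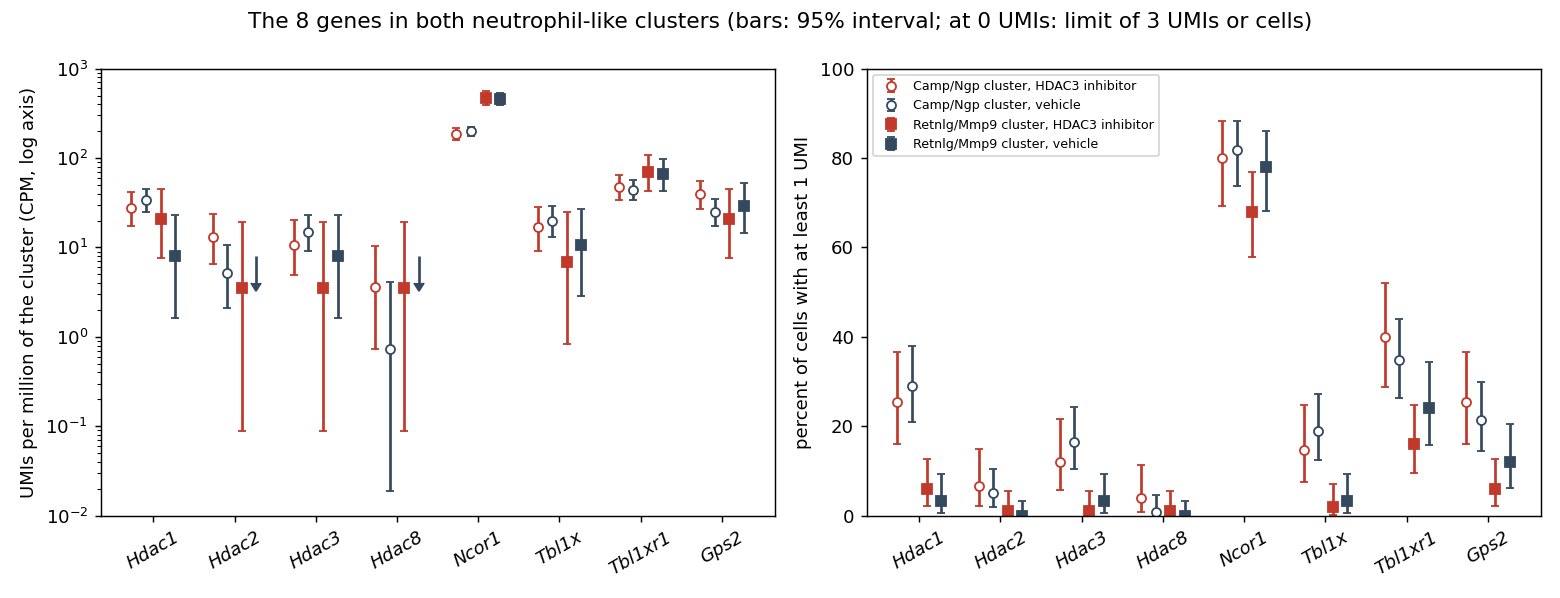
The 8 genes in both neutrophil-like clusters: left, level in CPM of the cluster on a log axis; right, percent of cells with at least 1 UMI, not thinned. Open circles are the Camp/Ngp cluster and filled squares the Retnlg/Mmp9 cluster, red for the HDAC3 inhibitor and dark blue for the vehicle library, with 95% intervals and, at 0 UMIs, the limit that 3 UMIs or cells set; Ncor1 is the gene whose levels are separate in both libraries, 473 and 462 against 186 and 199 CPM.

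The other members gave few UMIs in the Retnlg cluster. Tbl1xr1 was at 69.6 and 66.4 CPM there, from 20 and 25 UMIs, and 47.8 and 44.3 CPM in the Camp cluster, with intervals of the ratio that held 1. Hdac2 had 1 and 0 UMIs in the Retnlg cluster, where a count of 0 allows 7.97 CPM by a limit of 3 UMIs (exact Poisson upper bound 9.80), and 11 and 7 UMIs in the Camp cluster. Hdac1 had 6 and 3 UMIs against 23 and 46, Hdac3 1 and 3 against 9 and 20, Tbl1x 2 and 4 against 14 and 27, and Gps2 6 and 11 against 33 and 34. For Hdac1 the interval of the ratio of CPM excluded 1 in the vehicle library alone (0.235, 0.0467 to 0.730). So Ncor1 and Tbl1xr1 were the members with 20 or more UMIs in each library in the Retnlg cluster.

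Members also differed between clusters of other classes. A microglia-like cluster with Spp1 on top (68 and 90 cells) had less Hdac1 than the largest microglia-like cluster, 17.8 and 23.3 against 47.3 and 61.6 CPM, a ratio of 0.375 (0.184 to 0.689) and 0.378 (0.244 to 0.563). It also had less Tbl1x, 17.8 and 32.8 against 43.7 and 59.0 CPM, less Ncor1, 87.3 and 85.4 against 147 and 137 CPM, and less Gps2, 29.1 and 28.5 against 49.6 and 57.8 CPM. These 4 of 8 members were lower in both libraries, as were 20.2% of genes with at least 500 UMIs. The median depth of the Spp1 cluster was 3664 UMIs per cell against 11219, and its part in the result was not tested. Another microglia-like cluster, with Ccl4, Il1b and Tnf among its top genes, had less Ncor1 than the largest one (100 and 101 against 147 and 137 CPM), as had 7.98% of genes, and no other member was apart.

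Among monocyte/macrophage-like cells, the small cluster with Plac8, Chil3 and Ly6c2 on top (28 and 41 cells), genes of inflammatory monocytes, had more Hdac2 and more Tbl1xr1 than the large one. Hdac2 was at 38.9 and 29.04 against 15.3 and 12.4 CPM, a ratio of 2.55 (1.25 to 4.66) and 2.35 (1.31 to 3.98). Tbl1xr1 was at 60.2 and 64.9 against 29.9 and 35.4 CPM, a ratio of 2.02 (1.16 to 3.27) and 1.83 (1.27 to 2.58). So 2 of 8 members were higher in both libraries, against 14.9% of genes. This cluster made up 5.17% and 14.1% of the class.

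In mural-like cells, Tbl1x was lower in the cluster with Acta2, Tagln and Myh11 on top, genes of smooth muscle (62.3 and 104 CPM), than in the cluster with Vtn and Rgs5 on top, genes of pericytes (117 and 188 CPM). The ratio was 0.534 (0.302 to 0.912) and 0.555 (0.340 to 0.889), while 6.27% of genes were lower in both libraries. In endothelial-like cells, Tbl1x was higher in the smaller cluster (68.0 and 79.5 against 51.2 and 57.5 CPM), a ratio of 1.33 (1.04 to 1.69) and 1.38 (1.05 to 1.81), as were 7.72% of genes. The smaller endothelial-like cluster also scored higher for erythroid markers (4.02), and the part of red cell RNA in this difference was not tested. No member was apart between the clusters of oligodendrocyte-like cells (16.8% of genes in either direction) or of Schwann-like cells (7.93%). In all, 10 of 64 comparisons of a member between a smaller and the largest cluster of its class were apart in both libraries, the Ncor1 contrast in neutrophil-like cells among them. The share of all genes was not pooled over these comparisons, so nothing is read from this count.

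A cluster of cycling myeloid cells with Top2a, Pclaf and Birc5 among its top genes stayed unnamed between microglia and monocyte/macrophage markers (46 and 29 cells). Against the largest monocyte/macrophage-like cluster it had 2.83 (2.11 to 3.76) and 2.99 (2.003 to 4.35) times the Hdac1 level, 2.58 (1.80 to 3.62) and 3.08 (1.86 to 4.91) times the Hdac2 level, 2.18 (1.63 to 2.89) and 2.86 (1.95 to 4.09) times the Tbl1x level and 1.66 (1.06 to 2.51) and 1.76 (1.03 to 2.86) times the Hdac3 level. These 4 of 8 members were higher in both libraries, against 20.6% of genes. Against the largest microglia-like cluster no member was apart in both libraries, against 28.6% of genes in either direction. Hdac2 there gave 1.68 (1.13 to 2.46) and 1.29 (0.791 to 2.03).

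**Figure D5:**
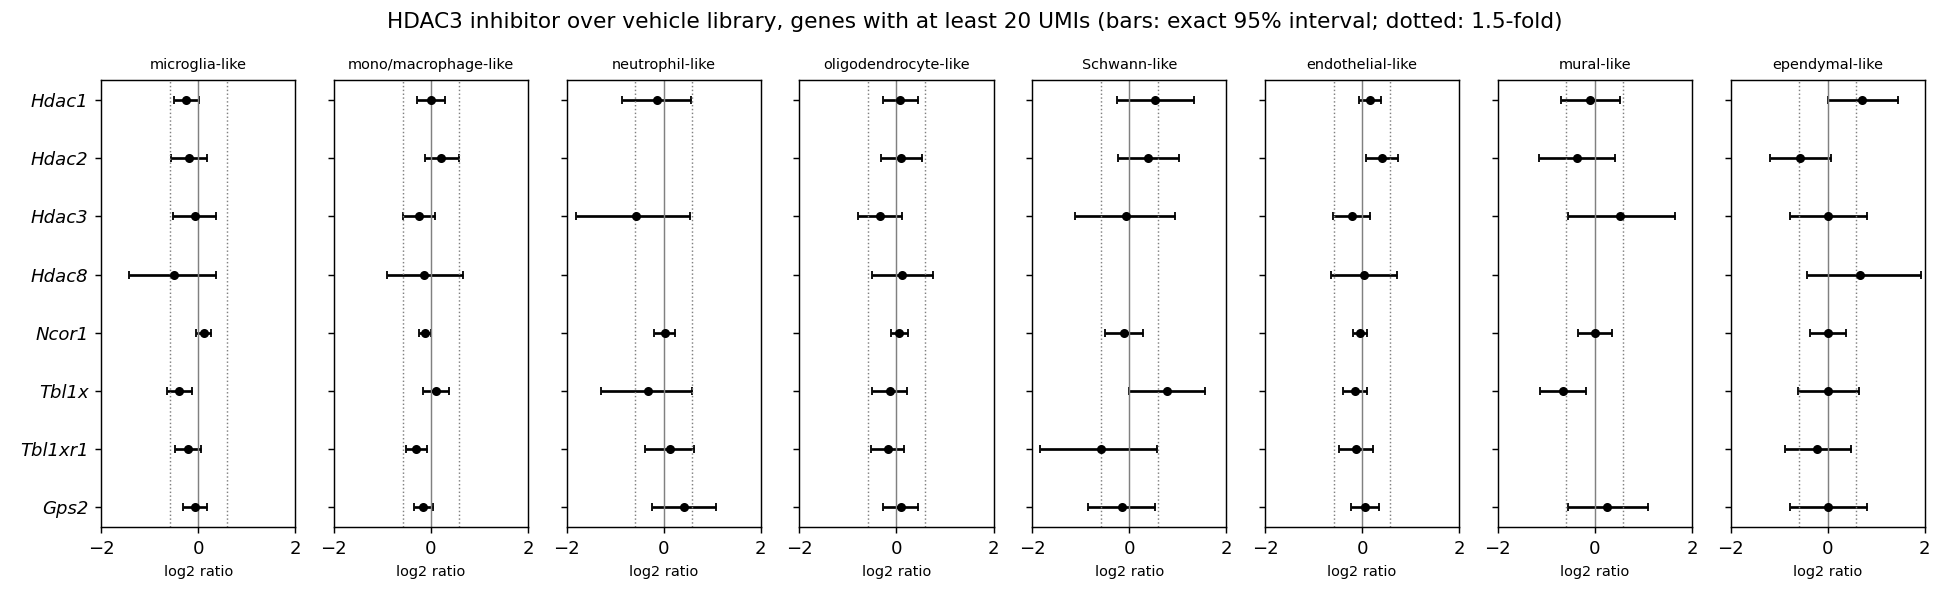
Log2 ratio of each gene's level, HDAC3 inhibitor over vehicle library, by class, where both libraries together held 20 UMIs or more, with exact conditional 95% intervals; dotted lines mark 1.5-fold. Of 59 intervals 53 hold 0, and of the 4 points past 1.5-fold Tbl1x in mural-like cells (-0.66) is the one below 0.

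Between the libraries no member passed 1.5-fold over all kept cells. Over all kept cells the ratio of HDAC3 inhibitor to vehicle lay between 0.873 for Hdac3 (0.782 to 0.976) and 1.05 for Hdac2 and Hdac8. The interval also lay below 1 for Tbl1xr1 (0.883, 0.813 to 0.960), Tbl1x (0.904, 0.837 to 0.977) and Ncor1 (0.959, 0.920 to 0.9997). It held 1 for Hdac1, Hdac2, Hdac8 and Gps2. All these values also carry the unequal class sizes of the libraries. The share of all genes with an interval off 1 was not counted over all kept cells. Within classes, 59 of 64 pairs of member and class had at least 20 UMIs. Of these, 3 were at least 1.5-fold higher and 1 at least 1.5-fold lower in the HDAC3 inhibitor library. The interval of the ratio held 1 for 53 of the 59, and excluded it for 6 (10.2%), against a background of 13% of 65782 pairs of gene and class.

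The targeted enzyme's own mRNA, Hdac3, did not pass 1.5-fold in any of the 8 classes, and each of the 8 intervals held 1. Its ratio was 0.951 (0.701 to 1.29) in microglia-like cells, 0.844 (0.674 to 1.06) in monocyte/macrophage-like cells, 0.789 (0.581 to 1.07) in oligodendrocyte-like cells and 0.861 (0.661 to 1.12) in endothelial-like cells. In the smaller endothelial-like cluster alone it was 0.587 (0.365 to 0.947), against 1.05 (0.758 to 1.45) in the larger one. Such ratios were taken for each of the 26 clusters. The share of all genes with an interval off 1 was not counted within clusters, so nothing is read from this cluster. By class, the Hdac3 ratio was 0.669 (0.284 to 1.46) in neutrophil-like cells, 0.957 (0.462 to 1.93) in Schwann-like, 1.43 (0.685 to 3.16) in mural-like and 1.002 (0.587 to 1.76) in ependymal-like cells. The intervals by class do not show equality, and an enzyme inhibitor need not change the mRNA of its target, so the values do not check the treatment.

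No member passed 1.5-fold in microglia-like cells, where 8.55% of 9629 measured genes did, or in monocyte/macrophage-like cells, where 8.73% of 9884 did. None did in neutrophil-like (20.1%), oligodendrocyte-like (8.89%) or endothelial-like cells (9.36%) either. The median log2 ratio of the members was -0.20 in microglia-like cells (all genes -0.02) and -0.13 in monocyte/macrophage-like cells (all genes -0.01). In microglia-like cells, Tbl1x was at 40.2 and 52.6 CPM, a ratio of 0.763 (0.638 to 0.911). With microglia-like cells thinned to 2000 UMIs the log2 ratio of Tbl1x was 0.14 in place of -0.39, so its direction there was not kept. In monocyte/macrophage-like cells Tbl1xr1 was at 30.5 and 37.6 CPM (0.812, 0.696 to 0.947), and in endothelial-like cells Hdac2 at 44.8 and 33.6 CPM (1.33, 1.06 to 1.68).

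The 1 member past 1.5-fold in mural-like cells was Tbl1x, where 17.6% of 6681 genes passed and 9.59% in the lower direction. It was at 93.7 and 148 CPM from 71 and 84 UMIs, a ratio of 0.632 (0.454 to 0.878). It was lower in the HDAC3 inhibitor library in both mural-like clusters, with 117 and 188 CPM in the Vtn/Rgs5 cluster (0.622, 0.417 to 0.925) and 62.3 and 104 CPM in the Acta2 cluster (0.598, 0.319 to 1.10). The smooth muscle cluster, which had less Tbl1x, made up 27.3% and 35.8% of the class.

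Tbl1x was higher in Schwann-like cells of the HDAC3 inhibitor library, where 19.8% of 6554 genes passed 1.5-fold and 9.2% in the higher direction. It was at 61.9 and 36.1 CPM from 33 and 27 UMIs, a ratio of 1.72 (1.0004 to 2.97). The smaller Schwann-like cluster, 30 and 47 cells with Scn7a on top, held 11 and 3 of these UMIs, a ratio of 5.61 (1.48 to 31.3). In the larger cluster Tbl1x was at 50.4 and 40.0 CPM, a ratio of 1.26 (0.674 to 2.35), which is not past 1.5-fold.

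In ependymal-like cells, where 18.2% of 7898 genes passed 1.5-fold and 9.64% in the higher direction, Hdac1 was at 69.8 and 42.9 CPM from 80 and 22 UMIs, a ratio of 1.63 (1.005 to 2.74). Hdac8 was at 27.9 and 17.5 CPM from 32 and 9 UMIs, a ratio of 1.59 (0.742 to 3.79), so its interval held 1. With a stricter cell filter the log2 ratio was 0.43 for Hdac1 and 0.08 for Hdac8, neither past 1.5-fold. Hdac2 pointed the other way there, at 48.9 and 72.1 CPM (0.677, 0.439 to 1.06), and Hdac3, Ncor1, Tbl1x and Gps2 had ratios between 1.002 and 1.004. These shares of members called are close to those of all genes or rest on 1 or 2 members, and nothing is read from them about the group.

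Outside the 8 classes 5 pairs of member and class were past 1.5-fold, in small groups of cells where many genes were. Hdac3 was at 12.3 and 21.1 CPM in border-associated macrophage-like cells (0.584, 0.251 to 1.41), where 25% of genes passed. In fibroblast-like cells (31.1% of genes) Hdac2 was at 47.1 and 24.8 CPM (1.90, 0.865 to 4.73) and Gps2 at 28.3 and 43.5 CPM (0.650, 0.315 to 1.38). Hdac1 was at 48.0 and 101 CPM in T/NK-like cells (0.477, 0.201 to 1.14), where 33.8% of genes passed. These 4 intervals held 1, and the other pair, Gps2 in oligodendrocyte progenitor-like cells (31.4% of genes), was at 65.3 and 26.3 CPM (2.48, 1.13 to 5.35).

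The wider machinery was described by gene lists chosen with earlier results known. In the NCoR list of 9 genes, which holds 5 of the members, 0 of 9 measured genes passed 1.5-fold in microglia-like and 0 of 9 in monocyte/macrophage-like cells, with median log2 ratios of -0.07 and -0.12. In the Sin3, NuRD, CoREST and MiDAC lists, to which Hdac1 and Hdac2 belong as proteins, none of 14, 10, 9 and 2 measured genes passed in either of these classes. Of all measured genes, 8.55% passed in microglia-like and 8.73% in monocyte/macrophage-like cells. The genes of highest mean level over the 8 classes were Sap18 (166 CPM), Sin3b (104) and Arid4b (91.9) in the Sin3 list, Chd4 (177), Mbd2 (116) and Mbd3 (76.6) in the NuRD list, Hmg20b (82.8), Kdm1a (53.1) and Rcor1 (31.0) in the CoREST list, and Dnttip1 (36.1) and Elmsan1 (22.3) in the MiDAC list.

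Of the opposing enzymes, histone acetyltransferases and their coactivators, 0 of 13 were past 1.5-fold in microglia-like cells (all genes 8.55%) and 1 of 13 in monocyte/macrophage-like cells (8.73%). In Schwann-like cells 0 were higher and 4 lower of 12 (19.8% of all genes in either direction), and in mural-like cells 1 was higher and 4 lower of 12 (17.6%). The gene in monocyte/macrophage-like cells was Kat2b, an acetyltransferase, at 6.15 and 11.4 CPM, a ratio of 0.538 (0.393 to 0.736). Crebbp (73.8 CPM), Ep300 (55.4) and Kat6a (49.3) had the highest mean levels. Of transcription factors that recruit NCoR, 1 of 10 measured in microglia-like cells passed and 0 of 13 in monocyte/macrophage-like cells. It was Nr1d1, which encodes the clock repressor REV-ERB alpha, at 10.1 and 6.16 CPM, a ratio of 1.65 (1.07 to 2.56). Thra (141 CPM), Rbpj (66.0) and Nr1h2 (53.3) had the highest mean levels of that list.

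The cell cycle list was counted by class, which leaves out the unnamed cycling cluster (46 and 29 cells). The summed level of the list there was 6447 and 7439 CPM. Of this list, 6 of 14 measured genes were at least 1.5-fold higher and 0 lower in microglia-like cells under the inhibitor, against 3.77% and 4.78% of all genes. They were Birc5 (3.53, 1.91 to 6.87), Ccnb2 (2.69, 1.62 to 4.58), Mcm6 (1.97, 1.35 to 2.89), Mcm5 (1.60, 0.916 to 2.83), Mcm2 (1.60, 0.802 to 3.22) and Mki67 (1.57, 0.963 to 2.56), and for the last 3 the interval held 1. In monocyte/macrophage-like cells 0 of 15 were higher and 7 lower, against 3.94% and 4.8% of all genes, with Top2a at 0.343 (0.224 to 0.517), Ccnb2 at 0.374 (0.218 to 0.630), Rrm2 at 0.429 (0.201 to 0.893), Mcm2 at 0.565 (0.346 to 0.918), Tyms at 0.613 (0.420 to 0.895), Ccnb1 at 0.613 (0.279 to 1.35) and Hmgb2 at 0.626 (0.571 to 0.686).

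The monocyte/macrophage-like count turned with the clusters counted. In the largest cluster alone, a choice made after seeing the data, 4 of 14 measured cell cycle genes (Mki67, Mcm5, Cdk1 and Birc5) were higher and 0 lower (all genes 4.88% and 3.44%), and the summed level of the list was 472 and 462 CPM. The Plac8 cluster, which made up 5.17% and 14.1% of the class, had a summed level of 906 and 1804 CPM. In the largest microglia-like cluster 3 of 13 (Mcm2, Mcm6 and Birc5) were higher and 0 lower (all genes 3.54% and 6.02%). The summed level was 684 and 666 CPM there, 646 and 453 CPM in the Spp1 cluster and 682 and 505 CPM in the cluster with Ccl4, Il1b and Tnf. Hmgb2 (288 CPM), Tubb5 (255) and Pcna (35.5) had the highest mean levels of the list. Hdac1 and Hdac2, which were higher in the cycling cluster than in the largest monocyte/macrophage-like cluster, had ratios between the libraries of 0.846 (0.707 to 1.01) and 0.876 (0.675 to 1.13) in microglia-like and 1.0 (0.818 to 1.23) and 1.16 (0.916 to 1.48) in monocyte/macrophage-like cells.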

How the data were processed

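Per the file headers, the authors' deposited matrices hold raw counts of UMIs per gene and cell barcode, made with Cell Ranger 3.0.2 from 10x Genomics 3' version 3 libraries, and the submitters' processing notes name mm10, Cell Ranger and Seurat. How reads that match several genes were treated, and whether strand was used, was not stated in the sources used here. Each group is 1 library, so no test across samples was possible and every interval is an exact 95% counting interval (Poisson for levels, conditional binomial for ratios, Clopper-Pearson for shares).

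A barcode was dropped below 500 genes or 1000 UMIs, or when mitochondrial UMIs exceeded 15%, which removed 448 (HDAC3 inhibitor) and 353 (vehicle) barcodes. Scrublet's automatic threshold marked 17 and 6 barcodes as doublets, too few to have worked, so the barcodes with the top scores, at 0.8% per 1000 barcodes, were left out instead (81 and 44), a choice made after seeing those numbers. Both libraries were clustered together (2000 variable genes, 30 principal components, 20 neighbours, Leiden resolution 1), giving 26 clusters, of which 23 were named from marker lists by a mean log2 score of at least 2.5 that was at least 0.5 above the next list. These naming limits were set after the clusters' scores were seen. A name also needed at least 3 markers at 20 CPM or more. A cluster stayed unnamed where another class had more markers among its 10 top genes, or at low depth with no own marker there. The 3 unnamed clusters hold 238 cells. UMIs were summed per class and library.

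A gene was measured where both libraries together gave at least 20 UMIs, and called at 1.5-fold or more. The 8 members were named throughout, with the 3 genes of highest correlation to each and the 3 highest genes of each list, and list genes past 1.5-fold in microglia-like or monocyte/macrophage-like cells. The members and lists were chosen with earlier results of these data known. Calculations used Python 3.11.15, scanpy 1.11.5, scikit-learn 1.9.0, igraph 0.11.9, leidenalg 0.10.2, numpy 2.4.6 and scipy 1.17.1, and were tested on simulated data. The alternatives tried are given under the dependence on processing.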

Additional observations from a re-analysis of the deposited data

Results flagged for a closer look

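Oligodendrocyte progenitor-like cells, 30 under the inhibitor and 61 under vehicle, lie outside the 8 classes compared. Gps2 stood out there, at 65.3 and 26.3 CPM from 14 and 17 UMIs, a ratio of inhibitor to vehicle of 2.48 (95% counting interval 1.13 to 5.35). It drew attention because it is a signal in cells that the comparisons do not use, and it has no replicate. In these cells 31.4% of measured genes were past 1.5-fold in either direction.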

How the results depend on the processing

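Of the 59 member and class pairs measured, 4 were past 1.5-fold. The number was 7 with called doublets kept, 12 of 46 with cells thinned to 2000 UMIs and 12 of 59 with each cell weighted alike, and 3 to 6 under the other alternatives. Tbl1x in mural-like cells stayed past 1.5-fold in 11 of 11 alternatives (log2 -1.08 to -0.64), Tbl1x in Schwann-like cells in 9 of 11 (0.33 to 0.97), Hdac1 in ependymal-like cells in 10 of 11 (0.43 to 1.24) and Hdac8 there in 8 of 9 (0.08 to 0.86). Of the 56 pairs of neighbouring classes, 7 were apart, and 1 was with cells thinned, 3 with the largest cluster of each class and 5 to 8 otherwise. Past 1.5-fold in all 8 gene lists together were 79 of 569 gene and class pairs, 31 of 452 with at least 50 UMIs required and 74 to 96 otherwise. These include the acetyltransferase, NCoR-recruiting and cell cycle lists. The share of all genes was not pooled over these pairs, so nothing is read from this count. The cause of these changes was not tested, except that thinning and the stricter minimum measure fewer pairs. Of 629 alternatives for single values, 610 moved by less than the counting interval, 19 moved by more and 0 reversed a called direction. The highest class became mural-like for Hdac1 in 3 of 9 alternatives and for Ncor1 with the largest cluster of each class, neutrophil-like for Tbl1xr1 with each cell weighted alike, and, with cells thinned, oligodendrocyte-like for Hdac8 and microglia-like for Gps2. With the largest cluster alone the cell cycle counts went from 6 to 3 higher in microglia-like and from 7 lower to 4 higher in monocyte/macrophage-like cells. With marker genes left out of the totals, chosen after seeing the data, the lowest class became microglia-like for Hdac3, monocyte/macrophage-like for Tbl1x and oligodendrocyte-like for Gps2, and the highest became neutrophil-like for Tbl1xr1. Each cell weighted alike gave levels but no intervals, so neighbouring classes were not compared under it. No paired analysis was possible because each group is 1 library. Low depth limits Hdac8 and the Retnlg cluster.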

Other observations

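The same oligodendrocyte progenitor-like cells, which give rise to oligodendrocytes, had 84.0 and 83.6 CPM of Hdac2 from 18 and 54 UMIs, against 25.1 and 23.4 CPM in oligodendrocyte-like cells. Their Hdac8 level was 28 and 24.8 CPM, against 12.2 and 11.3 CPM in oligodendrocyte-like cells. Astrocyte-like cells, 26 and 9 in number, had 54.6 and 95.2 CPM of Hdac8 from 8 and 3 UMIs. Border-associated macrophage-like cells had 124 and 86.5 CPM of Ncor1 from 151 and 45 UMIs, a ratio of inhibitor to vehicle of 1.44 (1.02 to 2.05).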
